A study of Mus musculus with 3 samples.

Results

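Among 9818 cortical astrocytes of 1 mouse culture profiled by droplet sequencing, 849 carried at least 3 UMIs of the interferon response genes Isg15, Ifit1, Ifit3, Rsad2 and Usp18. A UMI is a molecular barcode that counts 1 captured RNA molecule. These 849 selected astrocytes were 8.65% of the library (8.10% to 9.22%), in a series of 33927 kept cells in all. The cells kept had 200 or more genes with a UMI, and no more than 20% of their UMIs were mitochondrial. Because the 5 selecting genes chose the cells, their own levels in the selected cells are a description and support nothing.

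The library came from C57BL/6 cortical astrocytes, labelled with an age of E14.5. The protocol describes astrocytes either from P4 pups, sorted with anti-GLAST beads, or differentiated from neurospheres, and the labels do not say which source this library had. The cells were kept in DMEM-F12 with B27, Glutamax and 10% heat-inactivated serum, fixed in methanol and not exposed to any interferon that the labels name. The comparison libraries were MIM-Astrocytes, moved to MIM, a serum-free medium with B27, N2, FGF2 at 20 ng/mL and up to 6 metabolites and collected by the fifth day, and NSC, neural stem cells grown as E14.5 neurospheres with EGF and FGF2 at 20 ng/mL. Each group was 1 library with no replicate, so nothing below has a test over samples. All ranges in brackets are exact 95% intervals of a level, share or fold, and they hold counting error alone. The astrocyte library held 50594420 UMIs in kept cells with a median of 5089 UMIs a cell, against 3156 in the MIM-Astrocytes library and 1379 in the NSC library. It shared 43 cell barcodes with the MIM-Astrocytes library and 25 with the NSC library, and 7 of the shared barcodes were selected astrocytes.

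Type I interferons are secreted alarm proteins that bind the receptor chains Ifnar1 and Ifnar2. The receptor's kinases act through the factor ISGF3, of which Stat2 and Irf9 are subunits and which binds interferon-stimulated response elements in promoters and turns on antiviral genes. Astrocytes of the brain are known both to make interferon and to respond to it, and many interferon-stimulated genes also have a low tonic level without infection. Among the selecting genes, Isg15 encodes a ubiquitin-like protein that is attached to other proteins, and Usp18 removes it and dampens receptor signalling. Ifit1 and Ifit3 encode partner proteins that bind foreign RNA, and Rsad2 encodes viperin, which makes an antiviral nucleotide.

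The promoters of 4 of the selecting genes are shown because they carry the sequence element through which ISGF3 is known to act. They come from RefSeq on build GRCm38.p6, the assembly also named mm10, and run 5′ to 3′ on the strand of the gene. Each spans 250 bases before the start of the gene to 50 bases after it. Capitals mark every match to the core of the response element, GAAANNGAAA or its reverse complement TTTCNNTTTC, with overlapping matches run together. The windows are chr4:156200769-156201068 on the minus strand for Isg15, chr19:34640639-34640938 on the plus strand for Ifit1, chr19:34583279-34583578 on the plus strand for Ifit3 and chr12:26456403-26456702 on the minus strand for Rsad2. No promoter is shown for Usp18.
Isg15: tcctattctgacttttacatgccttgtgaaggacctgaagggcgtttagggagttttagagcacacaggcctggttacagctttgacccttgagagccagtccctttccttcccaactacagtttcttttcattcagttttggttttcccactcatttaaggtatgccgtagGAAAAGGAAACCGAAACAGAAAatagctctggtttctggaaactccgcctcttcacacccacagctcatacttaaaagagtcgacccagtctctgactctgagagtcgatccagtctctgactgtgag
Ifit1: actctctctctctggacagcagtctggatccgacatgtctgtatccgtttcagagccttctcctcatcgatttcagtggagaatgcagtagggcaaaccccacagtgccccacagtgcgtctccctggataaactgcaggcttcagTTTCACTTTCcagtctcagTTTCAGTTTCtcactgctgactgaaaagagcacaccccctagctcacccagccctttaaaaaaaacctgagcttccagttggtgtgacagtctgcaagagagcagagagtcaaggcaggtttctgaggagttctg
Ifit3: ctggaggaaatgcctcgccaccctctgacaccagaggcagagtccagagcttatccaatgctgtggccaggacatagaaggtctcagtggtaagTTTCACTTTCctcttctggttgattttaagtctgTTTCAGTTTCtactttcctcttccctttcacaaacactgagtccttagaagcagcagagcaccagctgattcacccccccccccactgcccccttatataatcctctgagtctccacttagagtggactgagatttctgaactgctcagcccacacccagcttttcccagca
Rsad2: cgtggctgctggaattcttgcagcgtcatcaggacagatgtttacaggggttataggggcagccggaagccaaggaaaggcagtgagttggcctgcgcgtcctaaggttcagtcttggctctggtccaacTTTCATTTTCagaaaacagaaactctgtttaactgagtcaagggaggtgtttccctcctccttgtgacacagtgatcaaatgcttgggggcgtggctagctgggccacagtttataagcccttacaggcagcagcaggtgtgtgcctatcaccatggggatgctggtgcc
Isg15 held 3 overlapping copies beginning 78 bases before the start, Ifit1 and Ifit3 held 2 each, and Rsad2 held 1. At least 1 copy stood in 3.99% of the promoters of 27025 genes in the same table and in 3.60% of those of the genes measured here. Among genes not used for selection that are described below, Cxcl10 and Igtp each had 1 copy and Ifit3b had 2, and no match was found in the windows of Irf7, Oasl2 and Xaf1. Promoters were at hand for only these 6 of the 13 genes called higher below, and the rest were not examined. A match describes the letters of a window and does not show binding.

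The UMIs of the selecting genes were spread very unevenly over the astrocytes. Of 9818 cells 6219 had none, 2058 had 1, 692 had 2 and 300 had 3, just inside the limit. A further 165 cells had 4 UMIs, 131 cells had 10 or more, and 47 cells had 20 or more. The cell with the most had 129 UMIs of these genes among 6551 UMIs in all, 72 of them from Isg15, 24 from Ifit3, 14 from Ifit1, 11 from Rsad2 and 8 from Usp18. If every cell had carried these RNAs at 1 rate per UMI of depth, 848 cells would have reached 3 UMIs, so the number selected was almost the number that a uniform level gives. The shape was not that of a uniform level. A uniform level gives 3994.9 cells with none, 62.1 with at least 5 and 0.025 with at least 10, against 6219, 384 and 131 observed.

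**Figure D1:**
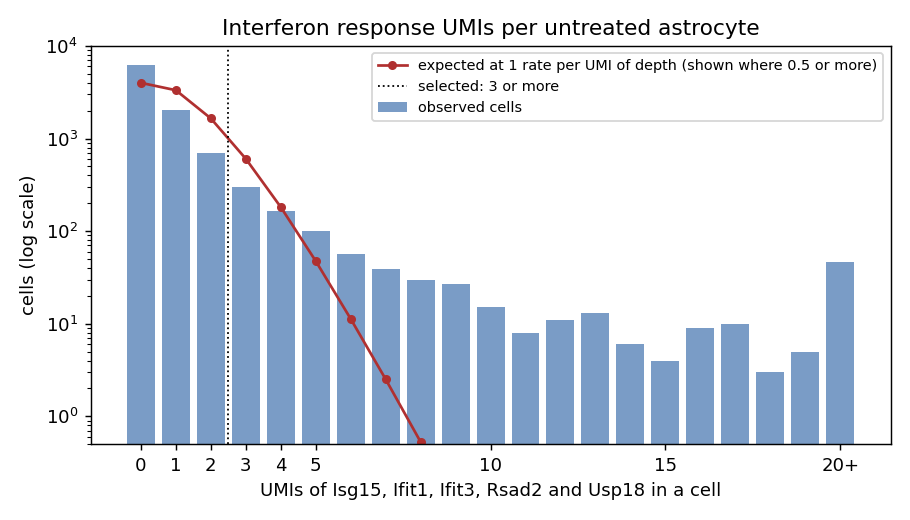
Cells of the untreated astrocyte library by their UMIs summed over Isg15, Ifit1, Ifit3, Rsad2 and Usp18 (bars, log scale; the last bar holds cells with 20 or more), with the numbers that 1 common rate per UMI of depth would give (line, drawn where 0.5 or more). Observed cells exceed the line at 0 UMIs, lie below it from 1 to 4 and far exceed it from 5 upward.

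A small number of cells held a large share of these RNAs, while a majority of the UMIs lay outside the most strongly labelled cells. The 131 cells with 10 or more UMIs were 1.33% of cells (1.12% to 1.58%), took 1.58% of all UMIs and held 30.5% of the UMIs of the selecting genes. The 47 cells with 20 or more held 18.4%. All 849 selected astrocytes together held 63.7%, and the cells with 1 or 2 such UMIs held the rest.

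Selection depended on depth. Selected astrocytes made up 1.18% of cells below 2000 UMIs, 7.93% of those from 4000 to 6000 and 17.5% of those from 8000 to 12000. The level of the selecting genes moved little over the same bins, at 167, 193 and 171 CPM (UMIs per 1000000 UMIs of the cells in question). Each selected astrocyte was therefore matched to the 3 nearest cells with 0 UMIs of the selecting genes, within 10% of its depth, which 848 of 849 could be. The 2545 like-depth cells had a median of 5916 UMIs and 2015 genes, against 5929 UMIs and 2015 genes in the selected astrocytes. Mitochondrial genes took 1.74% of UMIs in selected astrocytes and 1.78% in like-depth cells, and the nuclear RNA Malat1 took 12.9% and 13.5%.

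Cells meeting the same rule were nearly missing from the other libraries. In the MIM-Astrocytes library 6 of 14964 cells did (0.0401%, 0.0147% to 0.0873%), and in the NSC library 0 of 9145 did, which allows a share of up to 0.0328%. These libraries were shallower, so cells were also thinned to 1000 UMIs, leaving out 351 astrocytes, 973 MIM-treated astrocytes and 1457 neural stem cells. At that depth 1.10% of astrocytes (0.898% to 1.33%), 0.0143% of MIM-treated astrocytes and 0 of 7688 neural stem cells, which allows up to 0.0390%, had 3 or more UMIs. At least 1 UMI was seen at that depth in 12.1% of astrocytes, 1.36% of MIM-treated astrocytes and 0.195% of neural stem cells. Of the 6 MIM-treated cells, 3 had only 3 UMIs and the others had 16, 29 and 47, and none of the 6 barcodes occurred in the astrocyte library.

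Levels over whole libraries ran the same way. Isg15 stood at 79.4 CPM in astrocytes (77.0 to 81.9), 6.72 CPM in MIM-treated astrocytes and 0.408 CPM in neural stem cells. Ifit3 stood at 68.7, 5.74 and 0.681 CPM in the same order, Ifit1 at 26.2, 0.295 and 0 CPM and Usp18 at 10.9, 1.51 and 0.204 CPM. Rsad2 was nearest to level, at 2.43, 1.98 and 1.36 CPM. The libraries differ in medium, in depth and in all else that 1 culture differs from another, and these cannot be told apart.

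Each selecting gene was next read in cells chosen by the other 4, so that its own UMIs had no part in the choice. Isg15 (ENSMUSG00000035692, chromosome 4, 156199424 to 156200818) stood at 569 CPM (541 to 598) in 460 cells chosen without it, against 40.2 CPM (36.0 to 44.7) in their like-depth cells, 14.2-fold higher (12.6 to 16.0). Ifit1 (ENSMUSG00000034459, chromosome 19, 34640871 to 34650009) stood at 144 CPM against 11.1 CPM, 13-fold higher (10.9 to 15.7). Ifit3 (ENSMUSG00000074896, chromosome 19, 34583531 to 34588731) stood at 351 CPM against 38.3 CPM, 9.17-fold higher (8.14 to 10.4). All 3 of these abundant genes were thus about an order of magnitude above their like-depth cells. Usp18 (ENSMUSG00000030107, chromosome 6, 121245906 to 121270917) stood at 39.7 CPM against 6.60 CPM, 6.01-fold higher (4.68 to 7.76). Rsad2 (ENSMUSG00000020641, chromosome 12, 26442746 to 26456452) was scarce, with 60 UMIs in 843 cells against 16 UMIs in 2527 cells, 11.1-fold higher (6.30 to 20.6). Coordinates are from GENCODE vM21 on mm10, and all 5 genes are protein-coding.

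**Figure D2:**
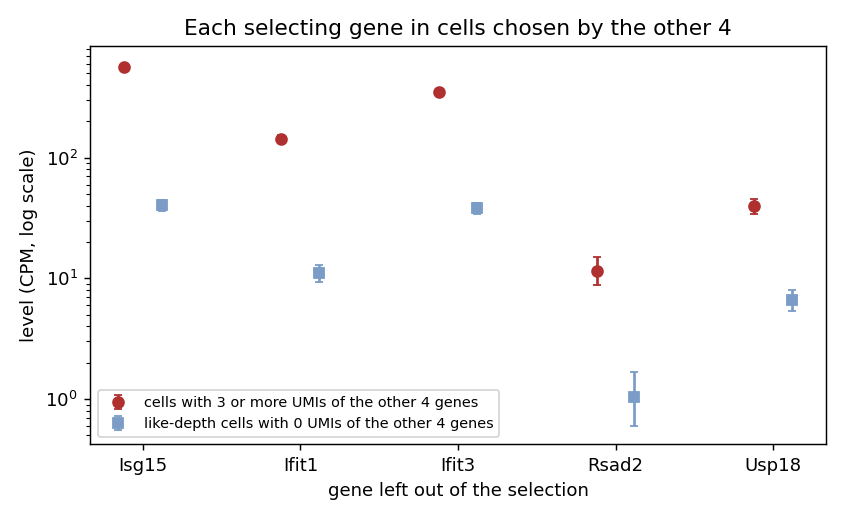
Level of each selecting gene (CPM, log scale, bars are exact 95% counting intervals) in cells with 3 or more UMIs of the other 4 genes (circles) and in like-depth cells with 0 UMIs of the other 4 (squares). Every circle lies above its square, from 6.01-fold for Usp18 to 14.2-fold for Isg15.

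The selecting genes also met in the same cells at equal depth. Among 9141 astrocytes thinned to 2000 UMIs, Isg15 was seen in 25.1% of cells with Ifit1 (20.7% to 30.0%), against 8.32% of cells without it. Ifit1 was seen in 12.5% of cells with Ifit3 (10.4% to 14.8%), against 2.89% without it. Isg15 was seen in 42.1% of the 38 cells with Rsad2 (26.3% to 59.2%), against 8.83% without it. The next counts describe UMIs that the rule itself summed, so they support nothing about genes meeting in a cell. In the full data 650 of the 849 selected astrocytes held UMIs of at least 2 of the 5 genes. The remaining 199 held a single gene, which was Isg15 in 125, Ifit3 in 68 and Ifit1 in 6.

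The mixture of the 5 genes differed between classes set by their own total. Such classes favour the gene with the most uneven counts at the top, so the shares are a description and support nothing. In cells with a single UMI of the set, Ifit3 gave 46.4% of these UMIs, Isg15 29.9% and Usp18 9.38%. In cells with 20 or more, Ifit3 gave 26.1%, Isg15 52.1% and Usp18 3.49%. The level of free RNA was not measured, and its part in these counts was not tested.

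Outside the selecting genes, very few genes differed between selected astrocytes and like-depth cells by the limit used here. A gene was measured with at least 250 UMIs in the library and called at a log2 ratio of at least 1 in size, with 10 CPM added to both levels. Of 8309 genes 13 were called higher, which is 0.156%, and 0 were called lower. The filter counted the selected astrocytes too, which favours genes high in them. Iigp1, Ccl7 and Gm4951 passed only through them, with 157 of 309, 94 of 275 and 173 of 414 UMIs there. Their calls, also counted in the GTPase, chemokine and effector lists below, are a description. The median log2 ratio over all measured genes was -0.00. Those described here are Cxcl10, Irf7, Rtp4, Ifit3b, Iigp1, Ccl5, Gm4951, Oasl2, Xaf1, Ccl2, Igtp and Ccl7, and all 13 were in the gene lists of interferon response, sensing or chemokines used here. The lists were chosen with earlier results of these data known, so this overlap is a description and supports nothing.

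Irf7, the transcription factor that amplifies interferon production, had 369 UMIs in selected astrocytes and 119 in like-depth cells. That is 70.6 CPM (63.6 to 78.2) against 7.71 CPM (6.38 to 9.22), 9.16-fold higher (7.43 to 11.4). It was seen in 22.3% of selected astrocytes and 4.32% of like-depth cells. Irf7 is itself a known interferon target that extends the response. Rtp4, an interferon-induced chaperone of G protein-coupled receptors, stood at 65.6 CPM against 10.2 CPM, 6.41-fold higher (5.29 to 7.79). Oasl2, a relative of the oligoadenylate synthetases that sense foreign RNA, stood at 34.4 CPM against 6.02 CPM, 5.72-fold higher (4.43 to 7.42). Xaf1, a pro-apoptotic interferon target, stood at 52.0 CPM against 13.7 CPM, 3.81-fold higher (3.17 to 4.58). None of these rested on a single cell: Rtp4 was seen in 236 selected astrocytes with at most 5 UMIs in any of them and Xaf1 in 219 with at most 4.

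Ifit3b, a close copy of Ifit3 on chromosome 19 at 34607970 to 34613401, stood at 52.0 CPM against 7.19 CPM, 7.24-fold higher (5.78 to 9.11). Its value is uncertain, because reads of Ifit3, a selecting gene, may be counted for its near-identical neighbour. Gm4951, an interferon-inducible GTPase gene, stood at 33.1 CPM against 4.14 CPM, 7.98-fold higher (5.96 to 10.8).

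**Figure D3:**
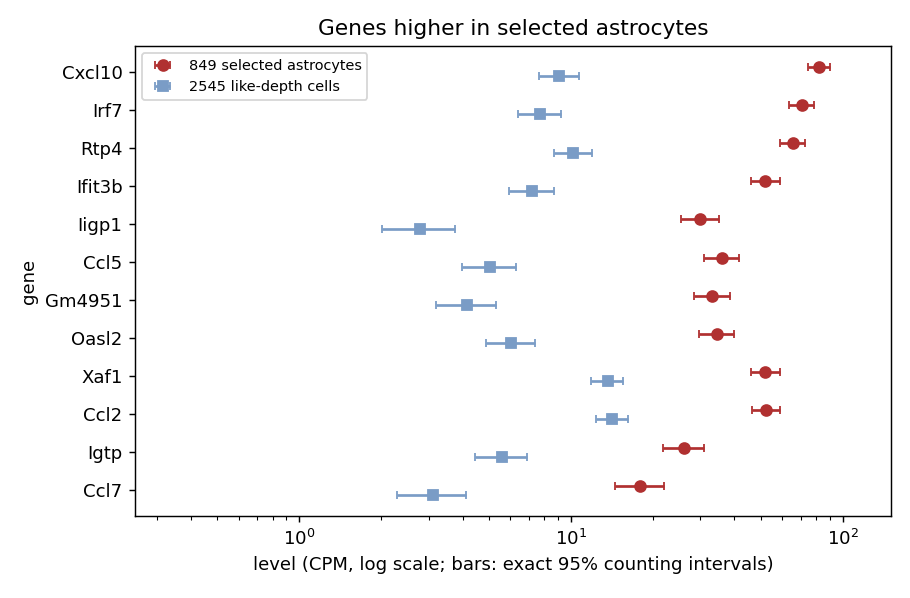
Levels (CPM, log scale) of the described genes called higher in 849 selected astrocytes (circles) and in 2545 like-depth cells with 0 UMIs of the selecting genes (squares), with exact 95% counting intervals. The intervals of both groups are apart for every gene drawn, with folds from 3.68 for Ccl2 to 10.8 for Iigp1. They hold counting error alone and not the spread between cells. In the selected astrocytes 5 cells held 73.4% of Ccl2, 80.9% of Ccl5 and 88.3% of Ccl7 UMIs, so separation says little for these.

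Antiviral effectors had mostly positive ratios, of modest size. Of the 58 genes of the list, 56 were in the files and 20 were measured. Of these, 5 were higher, 15 were neither and 0 were lower, beside 0.156% higher among all genes. Their median log2 ratio was 0.60. Of the 20, 19 had a positive log2 ratio, beside 4152 of all 8309 measured genes, and the exception was Parp12 at -0.01. Bst2, the tetherin that holds budding viruses, stood at 52.2 CPM against 25.8 CPM, 2.02-fold (1.73 to 2.36). Ifit2, a partner of Ifit1 and Ifit3, stood at 32.1 CPM against 16.6 CPM, 1.93-fold (1.58 to 2.35). Eif2ak2, the kinase that halts translation on foreign RNA, stood at 94.7 CPM against 57.6 CPM, 1.64-fold (1.47 to 1.84). Ifi27 and Ifitm3, the most abundant of the list, stood at 325 CPM against 224 CPM and at 264 CPM against 189.7 CPM. Reads of Ifitm3 may be shared with its close paralogs. These last 5 genes did not reach the log2 ratio of 1.

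Some classical interferon targets were too scarce to be measured. Ifi47, an immunity-related GTPase, had 64 UMIs in selected astrocytes and 5 in like-depth cells. Mx1, an antiviral dynamin-like GTPase, had 12 and 1, Oasl1 had 11 and 0, and Oas1a had 5 and 2. Oas3 and Oas1g had no UMI in the library, and neither Oas1b nor Mx2 was matched in the files.

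The receptor chains Ifnar1 and Ifnar2 and the partners Stat2, Irf9 and Socs1 stayed within the limit. The median log2 ratio of the 13 measured genes of receptors and signalling was 0.07. The receptor chain Ifnar1 had 8.61 CPM (6.28 to 11.5) in selected astrocytes and 7.19 CPM (5.91 to 8.66) in like-depth cells. Its partner Ifnar2 had 29.1 CPM (24.6 to 34.1) and 31.2 CPM (28.5 to 34.1) in the same groups. Both pairs of intervals overlap. Stat2 stood at 13.2 CPM against 11.2 CPM, a ratio of 1.18 (0.878 to 1.57). Irf9, the DNA-binding subunit of ISGF3, stood at 20.3 CPM against 9.78 CPM, 2.07-fold (1.60 to 2.68), with a log2 ratio of 0.61. Socs1, an inhibitor of the receptor kinases, stood at 13.6 CPM against 10.5 CPM, a ratio of 1.29 (0.965 to 1.72).

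No interferon transcript marked the selected cells. Of 21 interferon ligand genes 20 had no UMI in the whole library, Ifnb1 among them. The exception was Ifnk, with 3 UMIs in selected astrocytes and 24 in like-depth cells. A count of 0 among 50594420 UMIs does not exclude a short-lived or rare transcript. Of 8 measured sensors, adaptors and interferon regulatory factors, Irf7 was higher and 7 were neither, beside 0.156% higher among all measured genes. Their median log2 ratio was 0.14. Tlr3, the endosomal sensor of double-stranded RNA, stood at 28.5 CPM against 23.6 CPM, a ratio of 1.21 (0.992 to 1.47), and Irf3, which acts upstream of interferon production, at 15.9 CPM against 14.6 CPM, a ratio of 1.08 (0.833 to 1.40).

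Guanylate-binding proteins and immunity-related GTPases, which attack intracellular pathogens and respond strongly to interferon gamma, had positive ratios in all 5 measured genes. Iigp1 and Igtp were higher among them, 3 were neither and 0 were lower, beside 0.156% higher among all measured genes. The median log2 ratio of the 5 was 0.88. Iigp1 had 157 UMIs against 43, at 30.0 CPM against 2.78 CPM, 10.8-fold higher (7.65 to 15.5). Igtp stood at 26.0 CPM against 5.57 CPM, 4.67-fold higher (3.54 to 6.19). Gbp7 and Irgm1 had log2 ratios of 0.88 and 0.87. Genes of MHC class I presentation differed by less. Of 14 measured, 0 were called, which a list of this size gives at the background of 0.156% higher and 0% lower. A positive log2 ratio was found for 12 of the 14, beside 4152 of all 8309 measured genes. The median was 0.33. Psmb8, a subunit of the immunoproteasome that cuts peptides for presentation, stood at 47.2 CPM against 22.9 CPM, 2.07-fold (1.75 to 2.44). B2m, the shared light chain of class I molecules, stood at 381 CPM against 299 CPM, 1.27-fold (1.21 to 1.34).

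Some chemokines were higher in selected astrocytes, with most of their UMIs in a handful of cells. Of 9 measured genes of chemokines and NF-kB targets, 4 were higher, 5 were neither and 0 were lower, beside 0.156% higher among all genes. Their median log2 ratio was 0.59. Cxcl10, an interferon-induced attractant of T cells, stood at 82.1 CPM against 9.07 CPM, 9.05-fold higher (7.46 to 11.0). It was seen in 46 of the 849 selected astrocytes, 5.42%, against 1.18% of like-depth cells, and 5 cells held 51.3% of its 429 UMIs. Ccl5, another T cell attractant, stood at 36.0 CPM against 5.05 CPM, with 80.9% of its 188 UMIs in 5 cells. Ccl2, which draws monocytes, stood at 52.4 CPM against 14.2 CPM, with 73.4% of its 274 UMIs in 5 cells. Ccl7 was seen in 9 selected astrocytes, and leaving out the cell with most Ccl7 in each group gave it a log2 ratio of 0.88, below the limit, against 1.09 with all cells. Ccl5 had a log2 ratio of 0.91 in cells chosen without Isg15, and Ccl2 one of 0.79 in cells chosen without Ifit3, both below the limit. Chemokine-rich cells were not the same set as the selected ones: of 52 cells with 5 or more Cxcl10 UMIs 21 were selected and 15 had none of the selecting genes. These 52 cells held 83.2% of the Cxcl10 UMIs of the library, and 27 of them also had 5 or more UMIs of Ccl5, Ccl2 or Ccl7. Of 35 cells rich in Ccl5 by the same count 8 were selected, and of 44 rich in Ccl2 10 were. The NF-kB targets Nfkbia and Sod2 stood at 56.2 CPM against 51.0 CPM and at 453 CPM against 469 CPM.

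Lists of astrocyte identity, reactivity, growth and stress held no called gene, which lists of their sizes give at the background of 0.156% higher and 0% lower, so their counts say nothing particular about them. Of 21 measured astrocyte markers 0 were called, with a median log2 ratio of -0.06. Gfap, an intermediate filament that defines astrocytes, had a level of 225 CPM (213 to 239) beside 261 CPM (253 to 269) in like-depth cells, a ratio of 0.863 (0.808 to 0.922). Aqp4, the water channel, stood at 516 CPM against 546 CPM, and Slc1a3, the glutamate transporter also known as GLAST, at 200.4 CPM against 195 CPM. Sox2, a transcription factor of progenitors and astrocytes, stood at 155 CPM against 161 CPM. Of 14 measured reactive astrocyte genes 0 were called (median 0.12), and 0 of 9 contractile and serum response genes were (median 0.13). Complement C3 stood at 104 CPM against 77.1 CPM. Tagln, which binds actin in contractile cells, stood at 353 CPM against 235 CPM, 1.5-fold (1.42 to 1.59). Progenitor, S phase, p53 target, protein stress and immediate early lists had 0 genes called among 14, 8, 14, 12 and 4 measured, with medians between -0.05 and 0.04. Mki67, the proliferation marker, had no UMI in the library.

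Markers of other cell types were summed in both groups. Of 20 microglia and macrophage markers 13 had no UMI in the library, among them Ptprc, Csf1r, Cx3cr1, Tyrobp and Ctss. The list summed to 50.7 CPM (44.8 to 57.2) against 49.4 CPM (46.0 to 53). No selected astrocyte had more than 3 UMIs of the microglia list or more than 1 UMI of the lymphocyte or endothelial lists. Oligodendrocyte lineage markers summed to 215 CPM against 231 CPM, a ratio of 0.929 (0.868 to 0.994). Neuron markers summed to 69.6 CPM against 69.2 CPM, and fibroblast, pericyte and meninges markers to 7.46 CPM against 9 CPM. At least 3 UMIs of the neuron list were seen in 3.18% of selected astrocytes and 1.89% of like-depth cells. Ependymal markers summed to 52.6 CPM (46.6 to 59.2) in selected astrocytes and 63.0 CPM (59.1 to 67.1) in like-depth cells, and the ratio was 0.835 (0.727 to 0.955).

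Class means of several interferon genes differed on both sides of the limit of 3 UMIs, whereas summed chemokines and NF-kB targets stood well above the rest in the top class. Such means cannot tell a graded response from a changing share of responding cells. In cells with 0, 1, 2, 3 to 4, 5 to 9, 10 to 19 and 20 or more UMIs of the selecting genes, Ifit3b stood at 7.49, 10.5, 13.9, 25.3, 40.5, 108 and 281 CPM. Its interval in cells with 1 UMI (8.70 to 12.6) did not overlap that in cells with none (6.55 to 8.54). This gap is uncertain, because reads of Ifit3, a selecting gene, may be counted for Ifit3b. Irf7 stood at 8.92, 14.6, 23.9, 23.5, 66.5, 153 and 413 CPM, with the levels at 2 and at 3 to 4 UMIs overlapping. The Irf7 intervals in cells with 1 UMI (12.5 to 17) and with none (7.89 to 10.1) did not overlap. The median depth of these classes lay between 4866 and 5984 UMIs. Cxcl10 followed no steady order, at 8.92, 20.8, 15.3, 50.5, 22.2, 45.0 and 788 CPM. The summed chemokine and NF-kB target list stood at 587, 646, 668, 727, 649, 705 and 1968.0 CPM. The summed effectors, leaving out the abundant Ifi27 and Ifitm3 after seeing the data, stood at 296, 335, 400.0, 498, 644, 1077.2 and 2696.9 CPM, and with both at 703 CPM in cells with none and 3280.0 CPM in the top class. Class I presentation genes stood at 2082.5 CPM in the 47 cells with 20 or more, against 998 CPM in cells with none. Gfap ran the other way, at 170.1 CPM (126 to 225) in those 47 cells against 281 CPM (275 to 287) in cells with none. These classes were not matched for depth. Against 141 like-depth cells, at 191 CPM, the Gfap ratio of the 47 cells was 0.891, with an interval spanning 1 (0.634 to 1.23). For the 131 cells with 10 or more it was 0.759 (0.632 to 0.908) against 393 like-depth cells. Microglia markers stood at 52.1 CPM (29.1 to 85.9) in those 47 cells and 50.4 CPM (47.9 to 53) in cells with none.

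**Figure D4:**
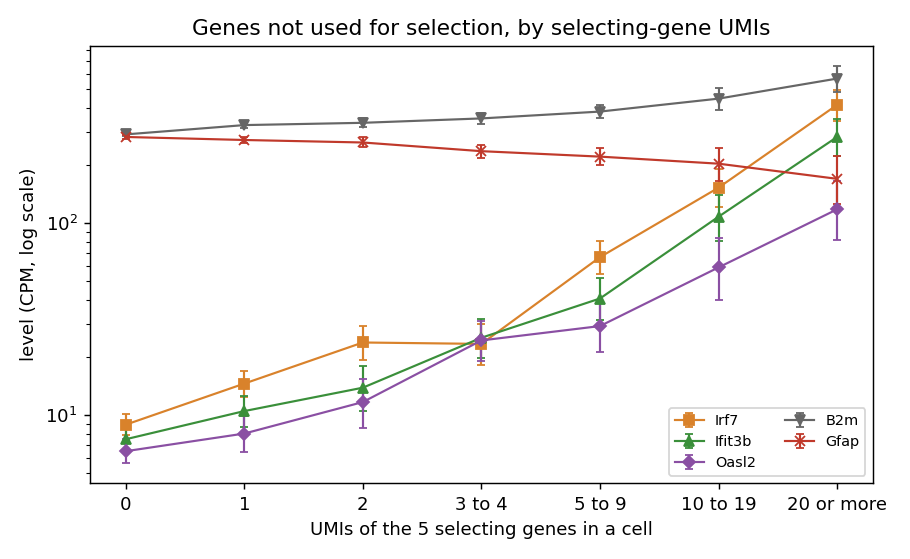
Levels (CPM, log scale, bars are exact 95% counting intervals) of 5 genes not used for selection, in astrocytes grouped by their UMIs of the selecting genes, low to high. Irf7, Ifit3b and Oasl2 climb steadily or nearly so, B2m climbs by less, and Gfap is lower toward the right. The classes were not matched for depth, and Ifit3b may hold reads of Ifit3, a selecting gene.

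The 131 cells with 10 or more UMIs of the selecting genes, a limit chosen after the counts were seen, had more genes past the limit of size. They held 798701 UMIs in all, against 5228458 in all selected astrocytes. With fewer UMIs, counting error alone can carry more genes past a fixed limit, so the larger number does not by itself show a broader response. Against 393 cells matched in the same way, 35 of 8309 genes were higher, 0.421%, and 4 were lower, 0.0481%. All 13 genes higher in the selected astrocytes were among the 35. The 131 cells are part of the selected astrocytes and held 250 of their 429 Cxcl10 and 197 of their 369 Irf7 UMIs. This overlap is thus largely built in and supports nothing. Irf7 stood at 247 CPM against 9.22 CPM, 26.7-fold higher (17.2 to 43.7), and Rtp4 at 178 CPM against 8.80 CPM, 20.2-fold higher (12.7 to 33.6). Cxcl10 stood at 313 CPM, from 23 cells. Its 393 matched cells held only 3 UMIs, or 1.26 CPM, so its fold there is poorly set, and all 6219 cells with none of the selecting genes stood at 8.92 CPM. Genes that joined the list at this limit included Ifit2 (5.64-fold), Bst2 (4.51-fold), Psmb8 (5.24-fold), Psmb9 (3.50-fold), H2-K1 (2.39-fold) and Gbp3 (10.5-fold). The 6 of the 35 outside the lists were Ifi202b, Trim12c, Scg2, Samd9l, Stk3 and Prrx2. Of these, Scg2, Samd9l and Stk3 had only 19, 19 and 16 UMIs in the 131 cells. Lcn2, an acute-phase lipocalin of reactive astrocytes, stood at 222 CPM against 83.0 CPM, but 91 of its 177 UMIs came from 1 cell. The 4 lower genes were Csdc2, Dnmt3a, Lrig1 and Crybb1, of which only Crybb1 had more than 3 UMIs in the 131 cells, at 41.3 CPM against 99.8 CPM.

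Interferon RNAs not used for selection lay partly in the selected cells and partly elsewhere. Selected astrocytes took 10.3% of all UMIs and held a median of 17.4% of the UMIs of the 20 measured effectors, from 10.4% for Parp12 to 41.8% for Gm4951, against a median of 10.3% over all measured genes. They held 41.0% of Irf7 and 50.8% of Iigp1 UMIs. Gm4951 and Iigp1 passed the filter only through the selected astrocytes, which favours a high share there, so their shares are a description. Cells with none of the selecting genes still held 268 of 899 Irf7 and 225 of 672 Ifit3b UMIs. At 2000 UMIs a cell, 33 cells had 10 or more effector UMIs, of which 17 were selected and 13 had none of the selecting genes at full depth. Ifi27 and Ifitm3 gave 26.4% of the effector UMIs in those 17 cells and 87.9% in those 13. Without these genes, a count added after seeing the data, 50 cells had 5 or more effector UMIs, of which 40 were selected and 4 had none of the selecting genes. All 9 cells with 10 or more were selected.

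Cell-to-cell spread was also read at equal depth. The Fano factor, the variance over the mean, is near 1 where UMIs fall at random. At 2000 UMIs it was 4.22 for Isg15, 2.09 for Ifit1, 2.07 for Ifit3, 1.19 for Rsad2 and 1.07 for Usp18, all used for selection, and at least 2 for 51 of 8309 measured genes, 0.614%. Among the 20 measured effectors only Ifitm3 reached that, at 2.75, and the median was 1.03 against 1.01 over all measured genes. Rtp4 stood at 1.16, Ifit2 at 1.13 and Ifit3b at 1.07. At this depth the effectors apart from Ifitm3, Ifi27 and Eif2ak2 averaged 0.0113 to 0.0635 UMIs a cell. Strong clumping can show at such means, as Ifit1 averaged 0.0521 UMIs a cell. Bst2, at a like mean of 0.0583, had a factor of 1.14, and so was less clumped than Ifit1. Weaker unevenness moves the factor little at such means, so a value near 1 does not show an even spread.

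The lowest ratios were small. By the naming rule the 10 genes lowest in selected astrocytes were Elobl, Nnat, Scpep1, Tcea3, Slc29a1, Klhdc3, Scaf1, Trim9, Mttp and Parn, with log2 ratios from -0.76 to -0.39, none past the limit. Elobl stood at 77.7 CPM against 138 CPM and Nnat, an imprinted membrane proteolipid gene, at 88.4 CPM against 143 CPM. They were seen in 67 and 72 of the 849 selected astrocytes, with 1 selected astrocyte holding 27.5% of the Nnat UMIs. On the high side, the naming rule also gave Gbp7, Irgm1 and Ifi202b, an interferon-inducible DNA sensor family member, at log2 ratios of 0.88, 0.87 and 0.85.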

How the data were processed

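Values are whole UMI counts per gene and cell in the deposited matrices. The authors used the aligner Cell Ranger 3.0.2 with a 10x mm10 reference, per the labels' protocols, and the submitters' processing notes name Seurat 3.1.1 without a role. The cell filters removed 7 astrocyte barcodes. No doublet caller was run and doublets were kept. UMIs were summed over cells and divided by the total of the group. Log2 ratios used a pseudocount of 10 CPM, and folds used none, with exact conditional binomial intervals. Matching took the nearest unused cells by UMIs outside the selecting genes. Thinning was without replacement (seed 1). Where a count was 0, the limit given is 3 counts of the total.

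Named genes were the 15 highest and 10 lowest log2 ratios outside mitochondrial, ribosomal protein and clone-like genes, a fixed set, and examples of each list. Gm4951 (clone-like), some list examples and the genes of the cells with 10 or more UMIs were named after their values were seen. The selected cells and gene lists were chosen with earlier results of these data known. Alternatives changed limits, matching, scaling, pseudocount and filters, and the calls were tested on simulated counts. All 41 of the 41 genes with coordinates were found by ID in GENCODE vM21. Software was numpy 2.4.6, pandas 2.3.3, scipy 1.17.1 and matplotlib 3.10.9 under Python 3.11.15. Some results are not reported here.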

Additional observations from a re-analysis of the deposited data

How the results depend on the processing

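The number of genes higher in selected astrocytes, 13 in the report, was 21 with a limit of 5 UMIs of the selecting genes and 21 with a pseudocount of 1 CPM. It was 2 with a filter of 1000 library UMIs, which leaves 4667 genes. With limits of 10 and 20 UMIs, both added after seeing the data, it was 35 and 135. The number lower, 0 in the report, was 1 with 1 matched cell each, 1 with a pseudocount of 1 CPM, and 4 and 161 with limits of 10 and 20 UMIs, the last over 47 cells. Effectors higher, 5 in the report, numbered 10, 11 and 14 with limits of 5, 10 and 20 UMIs and 0 with the filter of 1000, which leaves 6 of them. The effectors' median log2 ratio, 0.60 in the report, was 0.42, 0.95, 1.32 and 1.71 with limits of 2, 5, 10 and 20 UMIs. It was 0.86 with a pseudocount of 1 CPM, 0.75 and 0.76 with cells chosen without Isg15 and without Ifit3, and 0.28 with no filter on library UMIs, which was added after seeing the data. The share of astrocytes selected, 8.65% in the report, was 1.1% and 2.76% in cells thinned to 1000 and 2000 UMIs, and 15.7% and 3.91% with limits of 2 and 5 UMIs. The share of MIM-treated astrocytes, 0.0401% in the report, was 0.0143% thinned to 1000 UMIs and 0.247% with a limit of 2 UMIs. The cause of these shifts was not tested beyond the fewer genes or cells named.

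The 13 genes had 300 values under these and the other alternatives, all positive, of which 294 were at least 1. A gene under the filter of a setting had no value there. With the filter of 1000 library UMIs only 2 of the 13 had one. Ccl7 had none without the 8% of cells with the most UMIs. The alternatives reuse overlapping cells and include the limits added after seeing the data, so these values are not independent. The lowest was 0.76, for Igtp with a limit of 2 UMIs. Depth limits scarce genes: Rsad2 had 123 UMIs in the library, too few for the filter of 250. No paired analysis was possible because each group is 1 library.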
